A study of Mus musculus with 14 samples.

Results

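Cd4, Cd8a, Cd8b1, Cd2, Cd5 and Cd7 encode surface proteins by which T cells are recognised and staged. They were read here across 11 mouse cell lines from all probes that the platform annotation gives to these symbols. These were 7 of 7680 probes on the array, 2 for Cd8a and 1 for each other gene, and all 7 had a value on all 14 arrays. On each array the total RNA of a single line was labelled with Cy5 and that of a common pool, the Stratagene mouse reference, with Cy3. The lines were a T-cell lymphoma, a macrophage, a myoblast, an embryo fibroblast, a testis, a liver, a kidney and a skin line with 1 array each, and a myeloma, a fibroblast and a mammary tumor line with 2 arrays each. No treatment, strain or age is given for any line, the lines are named by tissue or cell type alone, titles call them cell lines where a short annotation says primary tissue, and on mammary tumor array 1 the pool carried 3 further letters in its label. The series title asks which genes single lines contribute to the pool. The dyes were not exchanged on any array. A deposited value is read as the log2 ratio of line over pool, so 0 means the level of the pool. In a pool of equal shares of the 11 lines, a transcript made by 1 line alone would read 3.46 in that line (11-fold). A low ratio from fewer expressing cells and one from less RNA per cell cannot be told apart.

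Developing T cells in the thymus first carry neither CD4 nor CD8, then both, and then keep one of them. CD4 binds MHC class II and CD8 binds MHC class I, CD8 as a pair of alpha chains or as an alpha and a beta chain, and both carry the kinase Lck to the T-cell receptor. CD2 is an adhesion molecule whose ligand in the mouse is CD48. CD5 is a scavenger-receptor family protein that dampens receptor signals and is also found on a subset of B cells. CD7 is an immunoglobulin family protein of T and NK cells and their precursors.

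The T-cell lymphoma line did not stand apart from the other lines for any of these genes. Its log2 ratios lay between -0.63 (Cd5) and 0.88 (Cd8a probe 476), and each lay within the range of the other 13 arrays. In 1 limma fit over all 14 arrays, with the T-cell lymphoma line set against the mean of the remaining 10, each weighted alike, 0 of 7 probes passed at an adjusted p under 0.05, and 0 of 7 had an unadjusted p under 0.05. Of all 7423 tested features 4.58% were called in this comparison (2.22% higher and 2.36% lower), and 23.4% had an unadjusted p under 0.05. The same array did carry T-cell identity: the receptor chain gene Cd3g, the adaptor gene Lat, the kinase gene Zap70 and Thy1 were all called higher in it. With arrays scaled to a common spread these calls were lost (limma adjusted p from 0.0945 to 0.102), and no feature was called. Against only the 8 lines that are not blood-cell lines 0 of 7 probes were called as well, where 6.61% of all features were, with differences from -0.17 (Cd8b1) to 0.86 (Cd7).

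**Figure D1:**
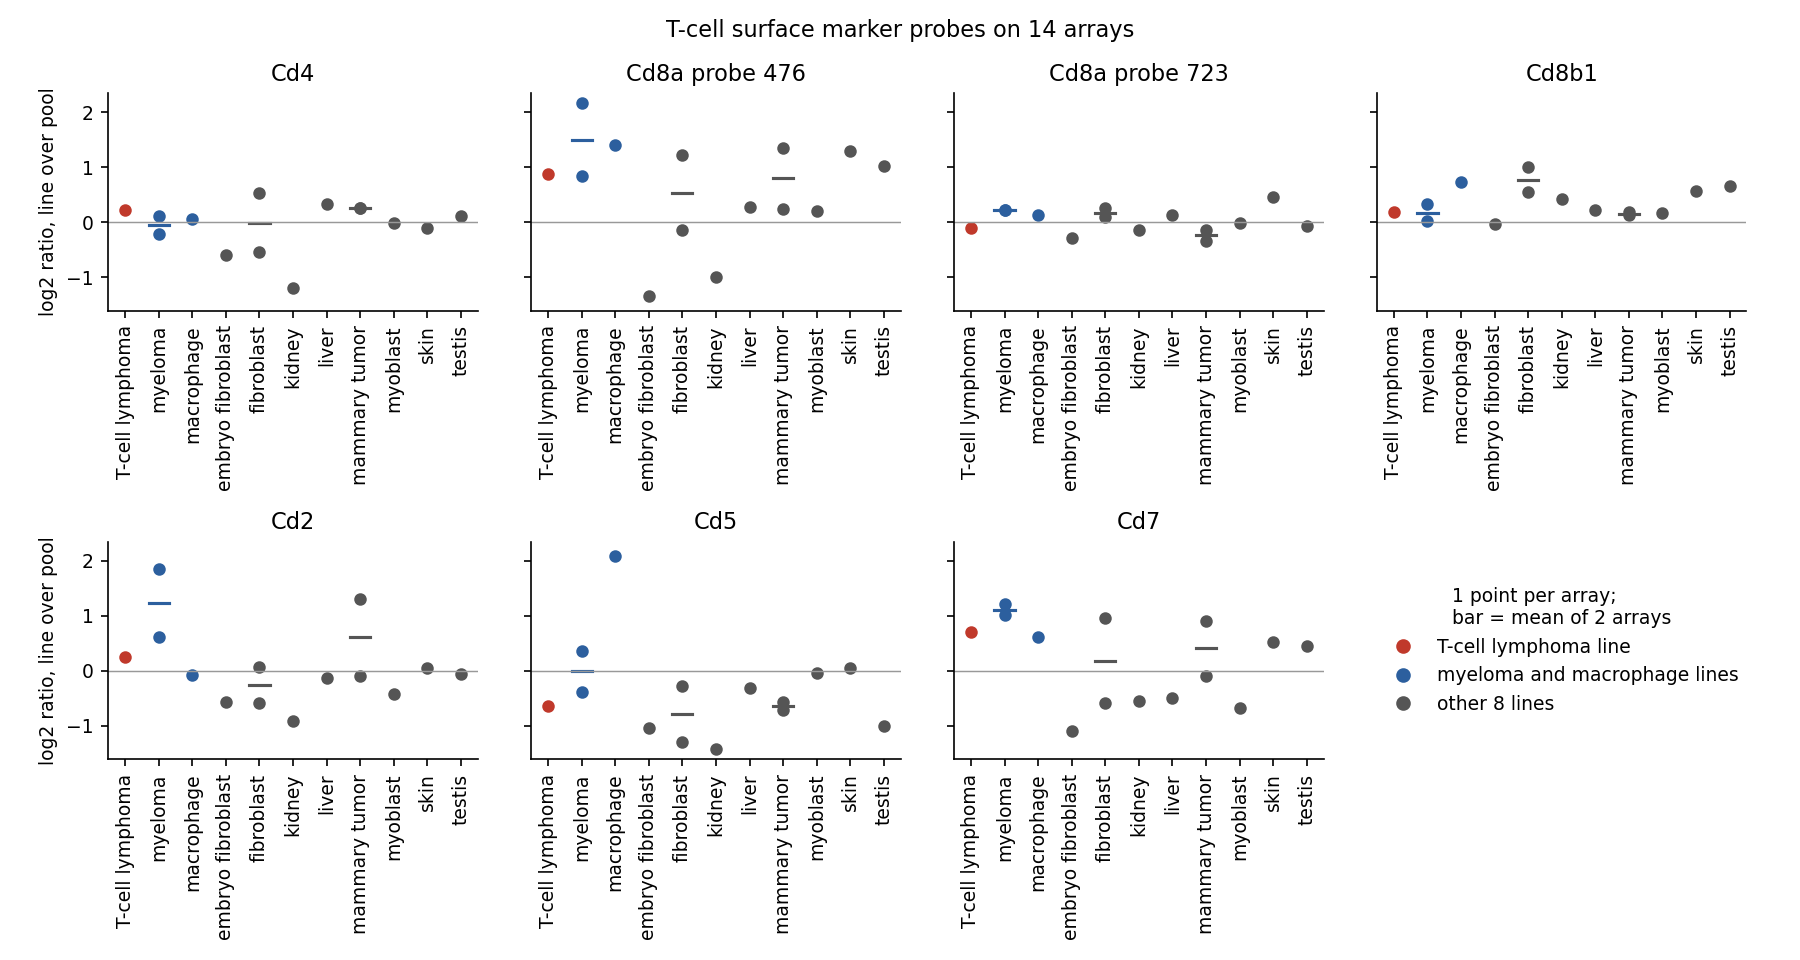
Log2 ratio of line over pool (vertical axis) for each of the 7 probes in the 11 lines (horizontal axis), with 1 point per array and a bar at the mean of lines with 2 arrays. The T-cell lymphoma array stays between -0.63 and 0.88 in every panel, and the macrophage array stands alone at 2.08 for Cd5.

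Cd4 stood near the level of the pool in T-cell lymphoma as in most lines. Its log2 ratio was 0.23 on the T-cell lymphoma array, 0.11 and -0.21 on myeloma arrays 1 and 2, and 0.065 on the macrophage array. In the other lines it was -0.59 in embryo fibroblast, -0.53 and 0.53 on fibroblast arrays 1 and 2, -1.19 in kidney, 0.34 in liver, 0.25 and 0.27 on mammary tumor arrays 1 and 2, -0.01 in myoblast, -0.11 in skin and 0.11 in testis. Only liver and mammary tumor had a higher line mean than T-cell lymphoma, and the low end was the kidney line. The Cd4 difference of the T-cell lymphoma line from the other 10 lines was 0.35 ± 0.45 (SE of the fit, 1 array against 13). This was 1.27-fold, with a limma adjusted p of 0.661 and a 95% interval from -0.73 to 1.42. A difference of 2.16 would have been needed for a call at this probe's spread. Over the 7 probes the difference needed ran from 1.59 (Cd8a probe 723) to 3.36 (Cd8a probe 476), with 3.09 for Cd2 and 2.93 for Cd7. Smaller differences at these probes could not have been called. The kidney array as a whole was low, with a median log2 ratio of -0.40 over all features. After centring of each array Cd4 was -0.79 in kidney.

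Cd8a, the alpha chain of CD8, was read by probes 476 and 723, which differed in what they showed. Probe 476 had a log2 ratio of 0.88 on the T-cell lymphoma array, 2.16 and 0.84 on myeloma arrays 1 and 2, and 1.40 on the macrophage array. It was -1.34 in embryo fibroblast, 1.22 and -0.15 on fibroblast arrays 1 and 2, -0.99 in kidney, 0.29 in liver, 1.36 and 0.25 on mammary tumor arrays 1 and 2, 0.21 in myoblast, 1.29 in skin and 1.03 in testis. Myeloma, macrophage, skin and testis ranked above the T-cell lymphoma line. Probe 723 stayed within a narrow band, from -0.34 on mammary tumor array 1 to 0.465 in skin, with -0.11 on the T-cell lymphoma array, 0.22 and 0.23 on myeloma arrays 1 and 2 and 0.13 on the macrophage array.

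The SD over the 11 line means was 0.93 for Cd8a probe 476 and 0.22 for probe 723. The first lay at the 80.3 percentile of all tested features and the second at the 0.323 percentile, so probe 723 was among the flattest features of the array. The difference of the T-cell lymphoma line was 0.41 ± 0.70 for probe 476 (adjusted p = 0.740, limma; 95% interval -1.27 to 2.09) and -0.15 ± 0.33 for probe 723 (adjusted p = 0.800, limma; 95% interval -0.95 to 0.65). Over 11 line means the probes correlated with Pearson's r of 0.61 as deposited and -0.12 after median centring of the arrays. Both are descriptions over lines that share the pool and the array shifts. Which probe tracks the Cd8a transcript was not tested.

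Cd8b1, the beta chain of CD8, varied little. Its log2 ratio was 0.20 on the T-cell lymphoma array, 0.016 and 0.34 on myeloma arrays 1 and 2 and 0.74 on the macrophage array. Its highest array was fibroblast array 1 (1.001; array 2 0.55) and its lowest the embryo fibroblast array (-0.022), with 0.67 in testis, 0.57 in skin, 0.42 in kidney, 0.23 in liver, 0.18 in myoblast and 0.13 and 0.18 on mammary tumor arrays 1 and 2. Its rank in the T-cell lymphoma line was 7 of 11. That line differed from the other lines by -0.19 ± 0.36 (limma adjusted p = 0.765, 95% interval -1.05 to 0.67). The spread over lines, an SD of 0.27, lay at the 1.51 percentile of all tested features.

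Cd2 was highest in the myeloma line. Its log2 ratio was 0.25 on the T-cell lymphoma array, 1.85 and 0.61 on myeloma arrays 1 and 2 and -0.07 on the macrophage array. It was -0.57 in embryo fibroblast, 0.08 and -0.58 on fibroblast arrays 1 and 2, -0.92 in kidney, -0.12 in liver, 1.31 and -0.093 on mammary tumor arrays 1 and 2, -0.42 in myoblast, 0.051 in skin and -0.05 in testis. Myeloma and mammary tumor ranked above T-cell lymphoma, whose difference from the other 10 lines was 0.30 ± 0.65 (limma adjusted p = 0.797, 95% interval -1.25 to 1.84). The myeloma line, with a mean of 1.23 against -0.15 in its other 10 lines, differed by 1.38 ± 0.48 (2.60-fold), with an unadjusted p of 0.0245 and an adjusted p of 0.153 in the limma fit. With the replicate number of the paired arrays as a block, the same difference had an SE of 0.25 and a limma adjusted p of 0.0172. That SE leaves out any shift of the lone arrays, and 14.2% of all features were called in the blocked comparison. Cd48, the gene of the CD2 ligand, was -0.67 in the T-cell lymphoma line and averaged 2.03 in the myeloma line, where it was called higher (limma adjusted p = 0.00431).

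Cd7 was at the upper end in the blood-cell lines. Its log2 ratio was 0.71 on the T-cell lymphoma array, 1.21 and 1.01 on myeloma arrays 1 and 2 and 0.61 on the macrophage array. It was -1.10 in embryo fibroblast, 0.95 and -0.58 on fibroblast arrays 1 and 2, -0.54 in kidney, -0.50 in liver, 0.91 and -0.09 on mammary tumor arrays 1 and 2, -0.67 in myoblast, 0.52 in skin and 0.45 in testis. Only myeloma ranked above the T-cell lymphoma line, whose difference of 0.66 ± 0.61 (1.58-fold, limma adjusted p = 0.537, 95% interval -0.81 to 2.12) was the highest of the 7 probes in this fit. With the image run as a random block it was 0.20, below the 0.64 of Cd4.

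The 3 blood-cell lines, T-cell lymphoma, myeloma and macrophage, were also set against the other 8 lines with the line mean as replicate. Cd7 averaged 0.81 ± 0.27 (SD, n = 3) in the blood-cell lines and -0.16 ± 0.62 (SD, n = 8) in the others. The difference was 0.96 ± 0.38, and the line means did not overlap, since the lowest blood-cell line stood at 0.61 and the highest of the others at 0.52. Fibroblast array 1 and mammary tumor array 1, taken singly, were above the macrophage array. Non-overlap of this kind was seen for 1 of the 7 probes and for 7.8% of all tested features. A two-sided exact permutation test over the 165 splits of the lines gave p = 0.0242 for Cd7, where the smallest p it allows is 0.00606. The limma adjusted p over all features was 0.183. For the other probes exact permutation p-values ran from 0.0545 (Cd5) to 0.988 (Cd8b1). In the limma fit on line means 0 of 7 probes were called, against 3.22% of all features, and 2 of 7, Cd5 and Cd7, had an unadjusted p under 0.05, against 19.8%.

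Cd5 was highest in the macrophage line, by a gap that no other probe showed between neighbouring lines. Its log2 ratio was 2.08 on the macrophage array, -0.63 on the T-cell lymphoma array and -0.38 (array 1) and 0.37 (array 2) for myeloma. The other lines gave -1.04 in embryo fibroblast, -1.30 and -0.27 on fibroblast arrays 1 and 2, -1.42 in kidney, -0.31 in liver, -0.71 and -0.57 on mammary tumor arrays 1 and 2, -0.03 in myoblast, 0.059 in skin and -1.01 in testis. The highest of the other 13 arrays was myeloma array 2, at 0.37. In the order of lines T-cell lymphoma had rank 6 of 11, and its difference from the other 10 lines was -0.32 ± 0.49 (limma adjusted p = 0.703, 95% interval -1.49 to 0.84).

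Cd5 gave the 1 call among these genes, so the sequence around its transcript start is shown. RefSeq promoter windows of 300 bases were held for 2 of the 6 genes, Cd5 and Cd8a. The window of Cd5 lies at chr19:10738925-10739224 (GRCm38.p6, minus strand) and runs from 250 bases before the start to 50 after it. Capitals mark the match to GAGGAA, the purine-rich core bound by PU.1, a transcription factor of macrophages and B cells, searched on both strands (TTCCTC on the other strand; it overlaps the ETS core GGAA).
Cd5 promoter: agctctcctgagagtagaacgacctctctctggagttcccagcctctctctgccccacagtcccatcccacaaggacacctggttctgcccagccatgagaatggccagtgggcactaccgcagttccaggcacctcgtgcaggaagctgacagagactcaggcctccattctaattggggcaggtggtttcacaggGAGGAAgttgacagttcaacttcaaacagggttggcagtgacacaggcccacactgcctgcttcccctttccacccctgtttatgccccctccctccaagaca
The window holds 1 match, at position -53 from the start, and 28.3% of 32851 such windows hold at least 1. The Cd8a window also holds 1 match, on the other strand at position -130, and neither Cd8a probe was called in the macrophage line. The matches are a description of the sequences only.

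Cd5 averaged 2.08 in the macrophage line (n = 1 array) and -0.58 over the remaining 10, and the difference of 2.66 ± 0.49 (6.33-fold) passed with a limma adjusted p of 0.0375 over all features. In the macrophage comparison 4.07% of all features were called, 1.94% as higher. Over all 11 lines this was the 1 call among 77 pairs of a probe and a line, and 1.89% of all pairs of a feature and a line were called. Of all features 14.8% were called in at least 1 line. Of the 77 pairs 6 had an unadjusted p under 0.05, against 15.8% of all pairs. Per line the share of all features called was 6.7% for myeloma, 2.21% for embryo fibroblast, 1.23% for fibroblast, 0.862% for mammary tumor, 0.795% for myoblast, 0.35% for testis, 0.0135% for liver and for kidney and 0% for skin. The call was lost under quantile normalization (difference 2.45, adjusted p = 0.0734) and without any single mammary tumor or myeloma array (limma adjusted p from 0.0573 to 0.0826), while the difference stayed between 2.42 and 2.71 in all 10 alternatives run. Scaling of the arrays to a common spread was not run for the Cd5 difference of the macrophage line. Set directly against the macrophage line, the T-cell lymphoma line had 2.71 less Cd5 on the log2 scale (-2.71 ± 0.66, limma adjusted p = 0.0975, or 0.0265 with the replicate number as a block). Features called in that direct comparison made up 2.02%, and 7.57% with the block. The standard error with the block leaves out any shift of a lone array. A feature at 2 or more in a line and at 0 or less in every other was counted as unique to it. That held for 20 of 7423 features in the macrophage line (0.269%, or 0.296% after centring) and for 0.175% in the T-cell lymphoma line, and for 0 of the 7 probes in any line. Cd5 was not among them, because the skin line stood at 0.059. Among other T-cell genes, 1 of 22 probes of the receptor and signalling list was called higher in the macrophage line, the adaptor gene Lcp2 (3.40, limma adjusted p = 0.0169). So was 1 of 28 probes of the surface list, the costimulatory receptor gene Cd28 (4.98, limma adjusted p = 0.00761). The T-cell markers Cd3g, Lat, Zap70 and Thy1 differed there by -1.04, 0.28, 0.03 and -1.09 and were not called.

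**Figure D2:**
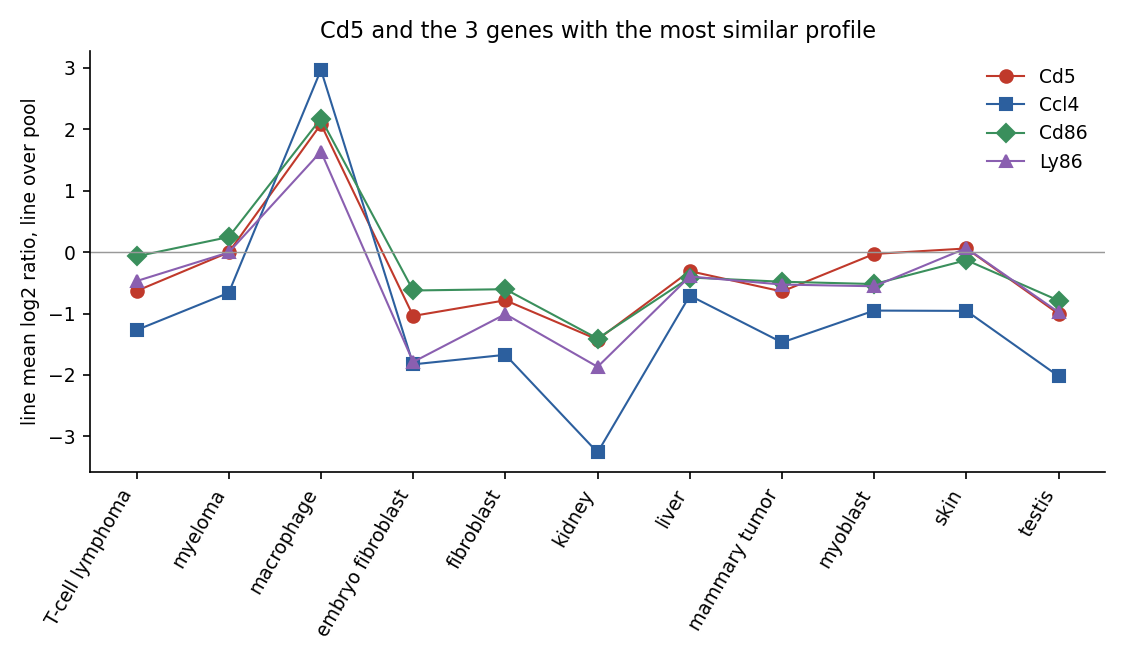
Line mean log2 ratio of line over pool (vertical axis) for Cd5 and the 3 genes with the highest Pearson r to it over 11 lines (horizontal axis). All 4 peak in the macrophage line, where Cd5 is at 2.08 and Ccl4 at 2.97, and all 4 are lowest in the kidney line.

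The genes most like each probe over the 11 line means, of 6611 named features compared, were taken as the 3 with the highest Pearson's r. For Cd5 these were Ccl4, a chemokine gene of activated macrophages (r = 0.98), Cd86, a costimulatory ligand gene of antigen-presenting cells (r = 0.95), and Ly86, which encodes MD-1, a partner of the CD180 receptor (r = 0.95). After centring each array their r with Cd5 was 0.98, 0.94 and 0.94. These genes were picked for a profile with its peak in the macrophage line, so their log2 ratios there, 2.97 for Ccl4, 2.17 for Cd86 and 1.64 for Ly86, are a description with no test. For Cd2 the closest genes were the cytokine genes Il15 (0.96) and Il1b (0.93) and the zinc finger gene Zfp296 (0.93). Those of Cd7 were Ccr1l1 (0.95), Ndst4 (0.94) and Pou5f1 (0.93), and those of Cd8a probe 476 were Camk2a, Cpe (0.95 each) and Serpini1 (0.94).

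For Cd4 and the flat probes Cd8a 723 and Cd8b1, most of the closest features had nearby probe numbers. Cd4 was most like Prss12 (r = 0.91), Zscan5b and Epha3 (0.90 each), Cd8a probe 723 like Ppp4c (0.92), Ahrr (0.88) and Styx (0.87), and Cd8b1 like Noc2l (0.83), Cd180 (0.82) and Ap3m1 (0.81). Of these 9 genes 8 had a probe number within 200 of the member's own, a window that holds between 5.19% and 5.54% of the features compared. For Cd2, Cd7 and Cd8a probe 476 none of the 9 did, and for Cd5 1 of 3 did. The part of array position in these profiles was not tested.

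The 2 arrays of a line differed in the same direction for part of the set. Array 2 was below array 1 in all 3 pairs for Cd8a probe 476, by -1.11 in mammary tumor, -1.36 in fibroblast and -1.33 in myeloma. The same held for Cd2, with -1.40, -0.66 and -1.24, and for Cd7, with -0.99, -1.53 and -0.20. For these 3 of 7 probes the lines with 1 array cannot be read more finely than this gap. Over all features measured on every array, 25.6% were lower on array 2 in all 3 pairs. Cd5 went the other way, with 0.15, 1.03 and 0.75, and so did Cd8a probe 723, by at most 0.20 in any pair. The share of all features higher on array 2 in all 3 pairs was not counted.

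**Figure D3:**
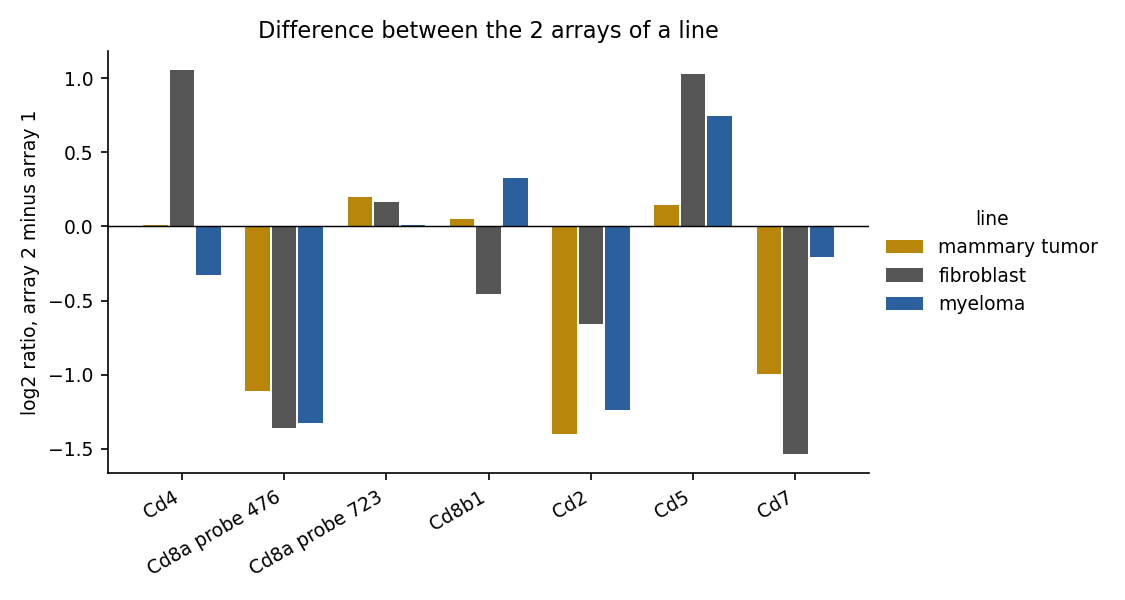
Log2 ratio of array 2 minus that of array 1 (vertical axis) for each probe (horizontal axis) in the mammary tumor, fibroblast and myeloma lines. Cd8a probe 476, Cd2 and Cd7 are negative in all 3 lines, and Cd5 and, by at most 0.20, Cd8a probe 723 are positive in all 3.

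The block takes a shift common to the array numbers out of the spread of the paired lines, and lone arrays stay at the midpoint. Any such shift of a lone array is therefore missing from the standard errors and p-values with the block. Taking the replicate number as a block raised the count of calls among the 77 pairs to 5. They were Cd5 in the macrophage line (adjusted p = 0.00817, where 9.77% of all features were called) and Cd2 in the myeloma line, given above. Cd8a probe 476 gave the other 3: myeloma by 1.09 ± 0.22 (adjusted p = 0.0252), embryo fibroblast by -2.04 ± 0.30 (adjusted p = 0.0166) and kidney by -1.65 ± 0.30 (adjusted p = 0.0415), all in the limma fit with the block, in comparisons where 14.2%, 11.6% and 3.81% of all features were called. Under the block the share of all features called was 5.23% for mammary tumor, 5.12% for myoblast, 4.39% for fibroblast, 1.68% for testis, 0.391% for liver and 0.0943% for skin, lines in which 0 of 7 probes were called. The embryo fibroblast and kidney arrays had the lowest medians of all 14, -0.51 and -0.40, and Cd8a probe 476 read -0.83 and -0.58 there after centring. Set against single lines, Cd8a probe 476 was higher in the T-cell lymphoma line than in embryo fibroblast by 2.22 ± 0.40 and than in kidney by 1.87 ± 0.40 (adjusted p = 0.0165 and 0.0342 with the block, where 20.5% and 14% of all features were called). The blocked comparisons of T-cell lymphoma with a line in which 0 of 7 probes were called had 17.7% of all features called for myoblast, 13.6% for fibroblast, 10.9% for mammary tumor, 7.18% for testis, 7.07% for liver, 5.7% for myeloma and 5.39% for skin. Without the block 0 of 70 pairs of a probe and a line were called against the T-cell lymphoma line, and 1, Cd5 against macrophage, had an unadjusted p under 0.05 (limma), against 20.1% of all such pairs. The share of all features called there was 5.83% for embryo fibroblast, 5.12% for mammary tumor, 5.02% for myoblast, 4.67% for fibroblast, 2.83% for kidney, 2.41% for testis, 2.02% for macrophage, 1.44% for myeloma, 1.36% for liver and 0.822% for skin. In an F-test for any difference among the 11 lines 0 of 7 probes passed (8% of all features did), and 1, Cd5, had an unadjusted p under 0.05 (limma adjusted p = 0.159), against 27.8% of all features. With the block 2 of 7, Cd5 and Cd8a probe 476, passed (23.4% of all features did). Against the mean of the other 10 lines the T-cell lymphoma line had 0 of 7 probes called with the block too (limma adjusted p from 0.289 to 0.736), where 15.5% of all features were called.

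The line means of each probe were also put in order, and each gap between neighbours was set beside its standard error. Of the 70 gaps over the 7 probes, 1 was more than 2 times its standard error. It was the step of 2.02 ± 0.66 in Cd5 between the macrophage and the skin line. Neighbours in a sorted order lie close by construction, and the share of such gaps over all features was not counted. The count is therefore a description only.

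Other genes of the T-cell programme were counted on the same fit. Of 42 symbols of the T-cell receptor complex and its proximal signalling, 21 genes were tested with 22 probes, and 7 probes were higher and 0 lower in the T-cell lymphoma line. Their median difference was 1.33, against 0.12 over all features, of which 2.22% were called higher. Cd3g was 2.31 against -1.78 in the other 10 lines (4.09 ± 0.48, limma adjusted p = 0.0163). Ptprc, which encodes CD45, differed by 5.64, Lat by 4.84 and Zap70 by 4.22. The calls of these 4 genes were each lost in 1 of 14 alternatives, with arrays scaled to a common spread (limma adjusted p from 0.0945 to 0.151). Lck, Cd3d, Cd3e and Cd247 were not analysed here.

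Of 28 probes of 24 other T-cell surface genes 5 were higher and 0 lower, with a median difference of 0.55. Tnfrsf18, the gene of the costimulatory receptor GITR, was higher by 3.95 ± 0.71, Thy1 by 3.65 ± 0.62, Pdcd1, the gene of the inhibitory receptor PD-1, by 3.14 ± 0.60 and Ly9, a SLAM family adhesion receptor gene, by 2.98 ± 0.37 (limma adjusted p from 0.0163 to 0.0378). The call of Pdcd1 was lost in 6 of 14 alternatives, with adjusted p up to 0.202. Those of Tnfrsf18 and Thy1 were lost in 4 of 14 each, with adjusted p up to 0.409 and 0.0945. That of Ly9 was lost in 1 of 14, with arrays scaled to a common spread (limma adjusted p = 0.121).

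**Figure D4:**
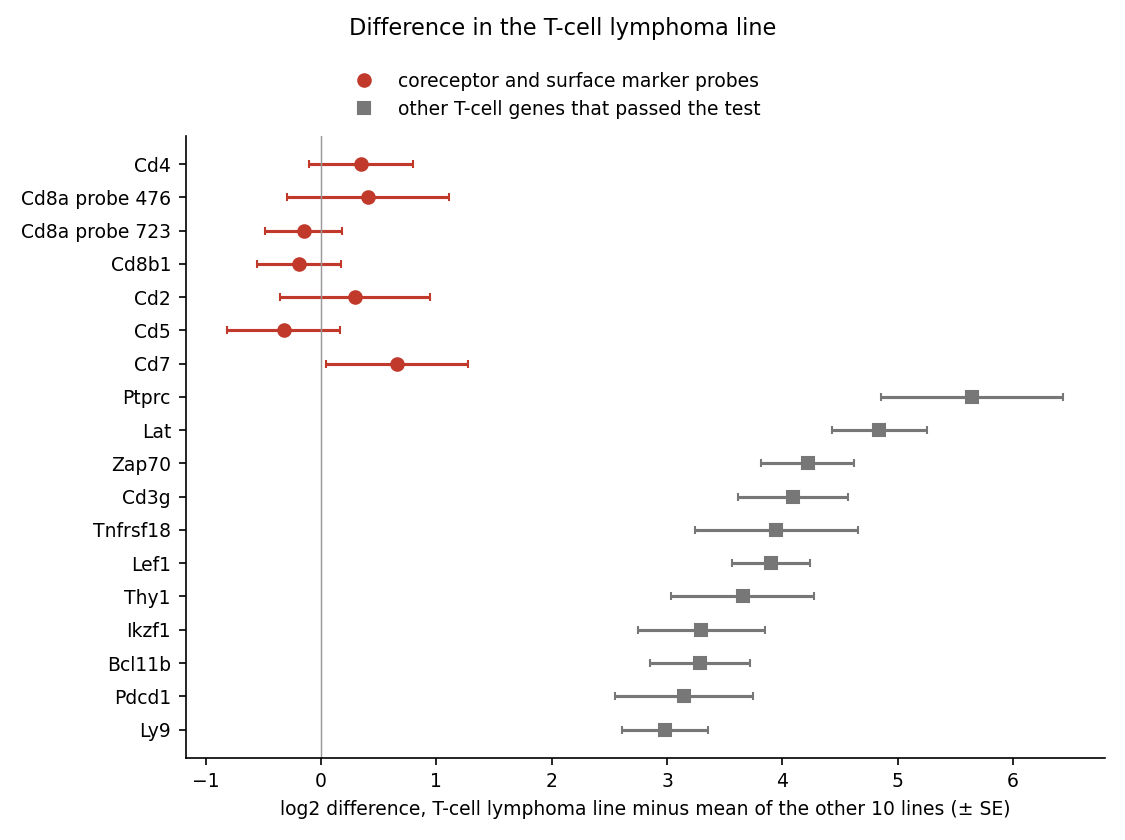
Log2 difference of the T-cell lymphoma line from the mean of the other 10 lines (horizontal axis; bars are standard errors of the fit) for the 7 probes (circles) and for other T-cell genes that passed the test, shown because they passed (squares). The circles lie between -0.32 and 0.66 and the squares between 2.98 and 5.64.

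Genes that mark stages in the thymus gave 3 higher and 0 lower of 26 probes from 22 genes, with a median difference of 0.33. The higher ones were the transcription factor genes Lef1 (3.90 ± 0.34), Ikzf1 (3.30 ± 0.55) and Bcl11b (3.29 ± 0.43), with limma adjusted p from 0.0114 to 0.0275. Ikzf1 lost its call in 4 of 14 alternatives. Lef1 and Bcl11b lost theirs in 1 of 14 each, with arrays scaled to a common spread (limma adjusted p = 0.0945 and 0.121). Rag1 and Rag2, the recombinase genes of early thymocytes, differed by 0.80 ± 0.58 and 0.37 ± 0.75 and were not called (adjusted p = 0.429 and 0.782, limma). Runx3 and Zbtb7b, whose proteins direct the CD8 and the CD4 choice, differed by -0.10 ± 0.49 and -0.50 ± 0.53 (adjusted p = 0.911 and 0.591, limma). The 4 probes of Il2ra, the gene of CD25, disagreed in sign, at 1.05, -0.31, -1.09 and -1.67, and none was called. Among the other uncalled probes of the list the largest differences went both ways. They were 3.63 ± 0.96 for Ccr9, 2.94 ± 0.68 for Dntt, -2.25 ± 0.81 for Id3 and -1.65 ± 0.41 for Notch1.

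Among 12 probes of 11 genes for ligands and partners of these receptors 1 was higher, Lat, which is also in the receptor list, and the median difference was 0.53. The MHC class II invariant chain gene Cd74 had a log2 ratio of -3.48 in the T-cell lymphoma line against a mean of -1.80 in the others (-1.68 ± 0.63, limma adjusted p = 0.180). B2m, the light chain gene of MHC class I, had -1.83 against 0.02 (-1.85 ± 0.42, adjusted p = 0.0572).

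Markers of other cell types were read on the T-cell lymphoma array as well. Of 13 B and plasma cell probes 0 were higher and 1, Sdc1, lower (-2.72, a call lost in 3 of 14 alternatives with adjusted p up to 0.169), with log2 ratios from -3.09 to 1.37, and 3 of 13 were above the pool. Of 12 macrophage probes 0 were higher and 1, Cd68, lower (-1.75, a call lost in 7 of 14 alternatives), with log2 ratios from -4.37 to 0.36. Of 8 NK and cytotoxic cell probes 0 were called, 7 of 8 were above the pool and all 8 differences were positive. Their median difference was 0.57, and the highest was that of the NK receptor gene Klrb1c (1.90, limma adjusted p = 0.0854). Over all features the median log2 ratio in this line was -0.016 and the median difference 0.12. The shares of all features above the pool and with a positive difference were not counted. Of 3 dendritic cell probes 0 were called and 1 was above the pool. The part of these markers in the values of Cd2 and Cd7, which NK cells also carry, was not tested.

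Within the run of image numbers that held the T-cell lymphoma array (with embryo fibroblast, kidney and fibroblast array 1), the T-cell lymphoma array exceeded the mean of the other 3 by 1.25 for Cd8a probe 476, 0.998 for Cd4, 0.93 for Cd7, 0.72 for Cd2 and 0.62 for Cd5. It differed by -0.003 for Cd8a probe 723 and by -0.27 for Cd8b1. These values have no test, and 2 of the 3 arrays are those with the lowest medians.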

How the data were processed

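The deposited values are log2 ratios of line over pool, 1 per spot and array, made by the authors from two-colour spotted arrays. How spots were background-corrected, normalized or filtered, and the log base, is not stated in the sources. Base 2 and the direction were taken from the values, and whether arrays were centred is unknown (array medians -0.51 to 0.13). The 80 Gapdh spots were averaged, which left 7601 features, of which 7423 had a value in all 11 lines and were tested. Probes with 1 annotated symbol numbered 6835, those with several 4 and those unlisted 841, and 6809 were matched to current RefSeq symbols (GRCm38.p6). The 423 empty cells were left empty.

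Lines were compared with limma 3.58.1 in R 4.3.3 (lmFit, eBayes, two-sided, Benjamini-Hochberg over all features, threshold 0.05), after a check on simulated data. Residual degrees of freedom were 3, from the lines with a second array, plus 3.75 from moderation, and single arrays were taken to vary as those lines did. Separate cultures are not stated for arrays of 1 line, so p-values cover the spread between arrays alone, and that may be technical. The number of arrays limits the precision. Plots came from matplotlib 3.10.9 (Python 3.11.15).

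Same-numbered arrays of the 3 pairs deviated together (r of 0.38, 0.54 and 0.33 between pairs of lines), so the replicate number was taken as a pairing from the data, with lone arrays left at the midpoint. Standard errors with this block leave out any shift of a lone array. Alternatives were array centring, quantile normalization, scaling to a common spread, removal of a trend along the probe number, complete probes only, robust moderation, averaging per gene, the image-number run as a random block, the replicate block and each paired array left out. Not every alternative was run for every result. Named genes are all probes of the 6 genes, the 3 features most like each, up to 4 called genes per list with the largest difference, and a fixed set of T-cell genes where measured. The members and lists were chosen with earlier results of these data known. Ccl4, Cd86, Ly86, Lcp2 and Cd28 in the macrophage line were given values after these had been seen. So were Klrb1c, Cd74, B2m, Ccr9, Dntt, Id3, Notch1 and Lcp2 in the T-cell lymphoma line.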

Additional observations from a re-analysis of the deposited data

Results flagged for a closer look

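Cd5 in the macrophage line stood far from the other lines: among the 10 lines other than T-cell lymphoma its gap to the next line was 0.577 of the whole range, above the critical value of 0.466. The comparison was made for 7 probes in sets of 10 and of 8 lines. Chance alone marks about 1 in 20 such sets when the values are drawn from 1 group. The value rests on 1 array. The lines are not replicates of a group, so this rate need not hold for them. The share of all features above the critical value was not counted.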

How the results depend on the processing

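The count of coreceptor and surface marker probes called in the T-cell lymphoma line against the other 10 was 0 in all 16 alternatives, and 0 in all 8 alternatives for the blood-cell lines. The count of all features called in the T-cell lymphoma line was 340. It was 76 with quantile normalization, 0 with arrays scaled to a common median absolute deviation (limma) and 1151 with the replicate block, and between 108 and 762 without a single paired array. Calls among the 77 pairs of a probe and a line numbered 1, became 0 with quantile normalization and 5 with the replicate block, and ran from 0 to 1 without a single paired array. Scaling to a common median absolute deviation was not run for the 77 pairs. The replicate block gave 3 calls in place of 0 for the T-cell lymphoma line against single lines and 2 in place of 0 in the F-test. It changed no call of the 7 probes for the T-cell lymphoma line against the mean. Signs turned for some differences that were not called. Taking the image run as random block gave T-cell lymphoma differences of -0.00403 for Cd8a probe 476, -0.0898 for Cd48 and -0.0456 for Rag2, with smaller sizes for Cd7 (0.201) and Cd2 (0.0775) and a larger one for Cd4 (0.644), and Cd48 was -0.00725 after centring. The difference was 0.0138 for Cd5 against the 8 lines that are not blood-cell lines, and 0.13 for Cd8a with both probes averaged. For blood-cell lines minus the other 8, Cd8a probe 723 was -0.0375 after centring and -0.0235 after quantile normalization, and Cd8b1 -0.11 and -0.17. Cd8b1 ran from -0.053 to 0.056 without a single paired array. The causes were not tested. Signal over background is not in the values used here, so a probe near 0 in all lines cannot be told from one with little signal.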
